A study of Mus musculus with 12 samples.

Results

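The genes described here are the parts of one transcriptional switch: the fatty acid receptors PPARγ (Pparg), PPARα (Ppara) and PPARδ (Ppard), their obligate dimer partners the retinoid X receptors (Rxra, Rxrb, Rxrg), and the coregulators PGC-1α (Ppargc1a), PGC-1β (Ppargc1b), NCoR1 (Ncor1) and MED1 (Med1). They were chosen by name, 10 in all, with earlier results of these data known. Their counts beside the shares of all genes are therefore a description. Values were read from the probe sets that carry a single gene symbol in the platform table. A probe set was found for 9 of the 10 genes, out of 19938 genes tested. Ncor1 had no probe set with its symbol alone in the table used here, so no value is given for it. For Ppargc1a, which had 2 probe sets, the one with the higher mean was used and the other served as a check.

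RNA of whole kidneys from mice aged 3 weeks was measured on 12 Affymetrix arrays in 4 groups of 3. The PpargΔ/Δ mice (Pparg null below) and their controls were of a mixed C57BL6/SV129 background, and the mice labelled AZIP (A-ZIP below) and their controls were of the FVB strain. A-ZIP is a transgene that blocks the formation of fat tissue and leaves the Pparg gene in place. Every array held pooled RNA of 3 animals, 36 animals in all, so the spread between arrays is that of pools and the p-values measure only this spread. The labels name no Cre driver, no deleted exon, no promoter of the A-ZIP transgene, no sex and no Pparg genotype of the controls, and all groups were kept in the same light cycle and killed with CO2.

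PPARs bind fatty acids and their derivatives, pair with an RXR and sit on DNA elements of the direct repeat type, where they exchange corepressors such as NCoR1 for coactivators such as MED1 and the PGC-1 proteins. In the kidney PPARα is known for driving fatty acid oxidation in the proximal tubule, PPARγ is known from the collecting duct, the medulla and endothelium, and PPARδ is expressed widely. PGC-1α drives the formation of mitochondria and is a coactivator of PPARs and of the estrogen-related receptors, and PGC-1β is its close relative.

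The promoters of Ppargc1a, Ppara and Ppard are shown because these genes moved in the mutant kidneys, on average over both lines, and have a single start in the table. The case of Ppard is the weakest. Its average had a limma adjusted p of 0.0339, stayed under 0.05 in 4 of 12 fits with an array left out, and neither line passed alone. Ppargc1b also moved on average, and no window of it was read. Each promoter shown is the stretch of 250 bases before the start, read 5′ to 3′ on the gene's strand from RefSeq on GRCm38.p6. The positions are chr5:51567726-51567975 on the minus strand for Ppargc1a, chr15:85735526-85735775 on the plus strand for Ppara and chr17:28232504-28232753 on the plus strand for Ppard. Capitals mark the match to the core of the cAMP response element, searched as TGACGT on both strands.
Ppargc1a: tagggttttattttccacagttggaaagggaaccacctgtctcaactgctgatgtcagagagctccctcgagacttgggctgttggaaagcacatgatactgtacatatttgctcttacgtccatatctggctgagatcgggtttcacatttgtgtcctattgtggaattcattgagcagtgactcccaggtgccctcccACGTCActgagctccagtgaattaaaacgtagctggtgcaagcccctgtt
Ppara: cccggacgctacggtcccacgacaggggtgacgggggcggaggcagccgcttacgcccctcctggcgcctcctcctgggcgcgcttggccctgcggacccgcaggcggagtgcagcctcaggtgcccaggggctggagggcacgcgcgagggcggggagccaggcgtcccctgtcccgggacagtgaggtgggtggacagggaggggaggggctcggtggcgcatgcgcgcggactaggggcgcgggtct
Ppard: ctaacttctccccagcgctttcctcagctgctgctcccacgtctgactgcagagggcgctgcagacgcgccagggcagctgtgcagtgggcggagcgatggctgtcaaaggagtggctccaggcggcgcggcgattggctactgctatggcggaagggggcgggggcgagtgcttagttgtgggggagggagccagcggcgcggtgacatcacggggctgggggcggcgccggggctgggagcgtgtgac

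The core element was found once in the Ppargc1a window, on the opposite strand as ACGTCA, from 50 to 45 bases before the start. The same core stood in 6.47% of 32851 promoter windows of this length. Neither the Ppara nor the Ppard window held it. The windows also differed in base composition, with 48% G and C for Ppargc1a, 69.6% for Ppard and 76.4% for Ppara against a median of 52.4% over all windows. The element to which PPAR and RXR bind, searched on both strands as AGGTCA, any base and AGGTCA again, was in 0 of 15 windows of the listed genes and in 0.0335% of all windows. Exact matches are so rare that 0 of 15 does not show that these genes lack the element. A single AGGTCA, which also lies within that element, was in 4 of 15 windows and in 14% of all. The 15 windows include those of Ncor1 and none of Ppargc1b. The motif hits are matches of letters, and binding was not measured.

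Kidney markers were high on all arrays. Slc34a1, the phosphate transporter of the proximal tubule, read 13.12 to 13.24, and Umod, the uromodulin of the thick limb, read 13.02 to 13.15. All values are log2 expression, differences are mutant minus control on that scale with limma's SE (n = 3 arrays in each group), and a gene passed the threshold at an adjusted p under 0.05 over all genes tested. In bulk tissue, fewer cells of a type and less RNA per cell cannot be told apart.

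**Figure D1:**
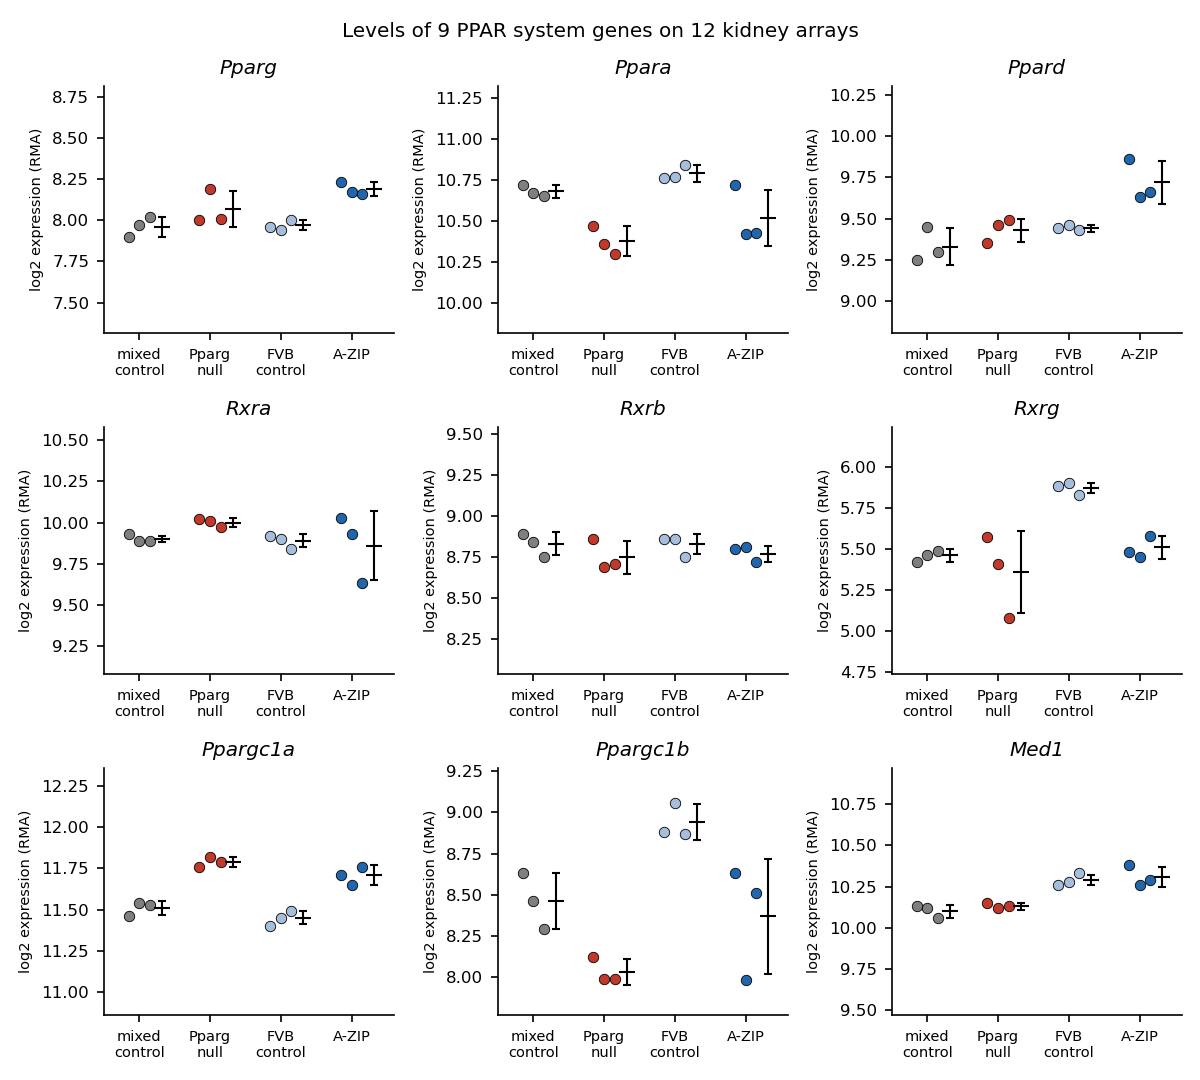
Log2 expression (vertical axis, each panel spanning the same width) of the 9 measured genes in the 4 groups; points are arrays, each a pool of 3 mice, and the bar beside them is the mean ± SD. Ppargc1a was higher and Ppargc1b lower on each Pparg null array than on each mixed control array, while Rxrb and Med1 overlapped between mutants and controls in both lines.

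Pparg, the gene targeted in the null line, was read first. Its probe set (10540897) gave 8.0, 8.19 and 8.01 on the Pparg null arrays and 7.90, 7.97 and 8.02 on the mixed control arrays. In A-ZIP kidneys it read 8.23, 8.17 and 8.16, and in FVB controls 7.96, 7.94 and 8.0. The null and control arrays overlapped, whereas every A-ZIP array lay above every FVB control array. In the null line the difference was 0.11 ± 0.06 (limma adjusted p = 0.339, 95% interval -0.02 to 0.23), and in the A-ZIP line it was 0.22 ± 0.06 (adjusted p = 0.0736), or 16.3% above the controls, which passed the threshold only without Pparg null array 2 (adjusted p = 0.0456) or with low genes filtered out (0.0487). The probe set thus did not read lower in the kidneys labelled as null. The sources used here do not say which part of the transcript the deletion removes, so this value does not check the genotype, and the groups rest on their labels.

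Ppara, the receptor of the proximal tubule, was lower in both mutant lines. It read 10.47, 10.36 and 10.30 in the Pparg null kidneys against 10.72, 10.67 and 10.65 in their controls. In the A-ZIP kidneys it read 10.72, 10.42 and 10.43 against 10.76, 10.77 and 10.84 in FVB controls. The groups did not overlap in either line, although A-ZIP array 1 stood close to its controls and the other A-ZIP arrays well below them. Ppara fell by 18.8% in the null line (-0.30 ± 0.08, limma adjusted p = 0.0448). This call was lost when any of the mixed control or FVB control arrays, Pparg null 2 or Pparg null 3 was left out (adjusted p up to 0.141), and with all probe sets tested (0.0829). The A-ZIP difference was of like size, -0.27 ± 0.08, and missed the threshold (adjusted p = 0.0932), but passed it without A-ZIP array 1 (adjusted p = 0.0132).

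Beside the Ppara values, the markers of the proximal tubule, where this receptor is most active, read as follows. The mean of the 5 markers was 12.57 to 12.69 on the mixed control arrays, 12.51 to 12.55 on the Pparg null arrays, 12.73 to 12.79 on the FVB control arrays and 12.51 to 12.71 on the A-ZIP arrays. By limma 0 of 5 passed the threshold in either line (2 in the null line and 3 in the A-ZIP line at an unadjusted p under 0.05, which 20.4% and 16.4% of all genes reached). In the average over both lines 3 of 5 fell past the threshold, beside 6.29% of all genes. Of these Lrp2 and Cubn kept the call with each array left out, and Slc5a2 kept it in 3 of 12 cases. Slc34a1 (-0.03) and Slc5a12 (0.05) did not pass. The part of tubule content in the Ppara difference was not tested.

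Ppard, the most widely expressed of these receptors, read 9.35, 9.46 and 9.49 in the Pparg null kidneys and 9.25, 9.45 and 9.30 in their controls, which overlapped. It read 9.86, 9.63 and 9.66 in the A-ZIP kidneys, all above the 9.44, 9.46 and 9.43 of the FVB controls. The differences were 0.10 ± 0.07 (limma adjusted p = 0.492) and 0.27 ± 0.07 (adjusted p = 0.0716), so neither line passed the threshold on its own.

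Of the RXR partners, Rxra and Rxrb passed the threshold in no comparison. Rxra, the main retinoid X receptor of the kidney, read 10.02, 10.01 and 9.97 on the null arrays and 9.93, 9.89 and 9.89 on their controls, which did not overlap, yet the difference of 0.10 ± 0.08 did not pass the threshold (limma adjusted p = 0.565). The A-ZIP arrays spread from 9.63 to 10.03, wider than the 9.84 to 9.92 of the FVB controls, and the difference was -0.02 ± 0.08 (adjusted p = 0.934). Rxra was the one measured gene of the 9 whose difference had opposite signs in the lines.

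Rxrb, which is expressed in most tissues, stayed within 8.69 to 8.89 on all 12 arrays. Its differences were -0.07 ± 0.06 in the null line and -0.05 ± 0.06 in the A-ZIP line (limma adjusted p = 0.57 and 0.759), with 95% intervals of -0.21 to 0.06 and -0.19 to 0.08.

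Rxrg, an isoform known mainly from muscle and brain, had its lowest reading on null array 3. Its values of 5.08 to 5.90 lay at percentile 19.5 of mean signal over all genes, beside fat markers such as Cidea (5.14 to 6.09), so its differences are those of a dim probe set. It read 5.57, 5.41 and 5.08 in the null kidneys and 5.42, 5.46 and 5.49 in their controls. In the A-ZIP kidneys it read 5.48, 5.45 and 5.58, all below the 5.88, 5.90 and 5.83 of the FVB controls. The null difference was -0.10 ± 0.10 (limma adjusted p = 0.617) and turned to 0.04 without Pparg null array 3. The A-ZIP difference of -0.36 ± 0.10 missed the threshold (adjusted p = 0.0732), and passed it without Pparg null array 1 or 3 (adjusted p = 0.0324 and 0.0139) and with only the A-ZIP and FVB groups fitted (0.0392).

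The coactivator Ppargc1a rose in both lines. On its main probe set (10529979) it read 11.76, 11.82 and 11.79 in Pparg null kidneys against 11.46, 11.54 and 11.53 in mixed controls. It read 11.71, 11.65 and 11.76 in A-ZIP kidneys against 11.40, 11.45 and 11.49 in FVB controls. All 6 mutant arrays lay above all 6 control arrays. Ppargc1a rose by 21.2% in the null line (0.28 ± 0.05, limma adjusted p = 0.00878) and by 19.6% in the A-ZIP line (0.26 ± 0.05, adjusted p = 0.0202). The null call held with each of the 12 arrays left out in turn (adjusted p up to 0.045). The A-ZIP call was lost without A-ZIP array 3 (adjusted p = 0.0609), FVB control 1 (0.0959) or FVB control 2 (0.0749), with all probe sets tested (0.0505) and with only its own groups fitted (0.0823).

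The other Ppargc1a probe set (10529977) moved alike. It read 11.08, 11.21 and 11.19 in null kidneys against 10.85, 10.72 and 10.84 in controls, and 11.15, 10.90 and 11.04 in A-ZIP kidneys against 10.72, 10.62 and 10.78 in FVB controls. Its differences were 0.36 ± 0.07 and 0.32 ± 0.07 (limma adjusted p = 0.0345 and 0.0821 over all probe sets).

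Ppargc1b went the other way. It read 8.12, 7.99 and 7.99 in null kidneys against 8.63, 8.46 and 8.29 in controls, with no overlap. In the A-ZIP line it read 8.63, 7.98 and 8.51 against 8.88, 9.06 and 8.87, again with no overlap, with A-ZIP array 2 the lowest by a wide margin. The differences were -0.43 ± 0.14 (limma adjusted p = 0.113) and -0.56 ± 0.14 (adjusted p = 0.0652), or -25.5% and -32.3%. Neither passed, and the A-ZIP difference was -0.36 without A-ZIP array 2. Without A-ZIP array 2, whose spread enters the shared error, the null difference passed the threshold (adjusted p = 0.0214). The A-ZIP difference passed it without A-ZIP array 1 (adjusted p = 0.0305).

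Brown fat, another tissue in which PGC-1α is abundant, was checked beside these values. Its markers Ucp1 and Cidea had a mean of 5.48 to 5.92 on the mixed control arrays, 5.24 to 5.35 on the null arrays, 5.51 to 5.99 on the FVB control arrays and 5.45 to 6.74 on the A-ZIP arrays. Ucp1 read 6.43, 7.39 and 5.44 on the A-ZIP arrays and 5.37, 5.35 and 5.23 on the null arrays, and 0 of 2 markers passed the threshold in either line by limma (0 at an unadjusted p under 0.05). The part of brown fat in the Ppargc1a values was not tested. The 5 white fat markers had means of 5.66 to 6.01 over all arrays, and Adipoq, the adipocyte hormone that defines the list, read 4.28 to 4.61.

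Med1, the Mediator subunit that docks on ligand-bound nuclear receptors, did not separate mutants from controls. It read 10.15, 10.12 and 10.13 in null kidneys and 10.13, 10.12 and 10.06 in controls, and 10.38, 10.26 and 10.29 in A-ZIP kidneys and 10.26, 10.28 and 10.33 in FVB controls. The differences were 0.03 ± 0.05 and 0.02 ± 0.05 (limma adjusted p = 0.769 and 0.92), with 95% intervals of -0.07 to 0.13 and -0.09 to 0.12.

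In the Pparg null comparison 2 of the 9 genes passed the threshold, 1 higher and 1 lower, where 5.29% of all genes passed it (2.67% higher, 2.62% lower). In the A-ZIP comparison 1 of 9 passed, a rise, where 2.43% of all genes did (1.30% higher, 1.13% lower). No array of one group overlapped the other group for 4 of 9 genes in the null line and 6 of 9 in the A-ZIP line, beside 26.1% and 22.5% of all genes. The median size of the difference was 0.10 for the 9 genes and 0.08 for all genes in the null line, and 0.26 and 0.07 in the A-ZIP line. Past the threshold in both lines with the same sign stood Ppargc1a alone of the 9, and 1.23% of all genes.

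**Figure D2:**
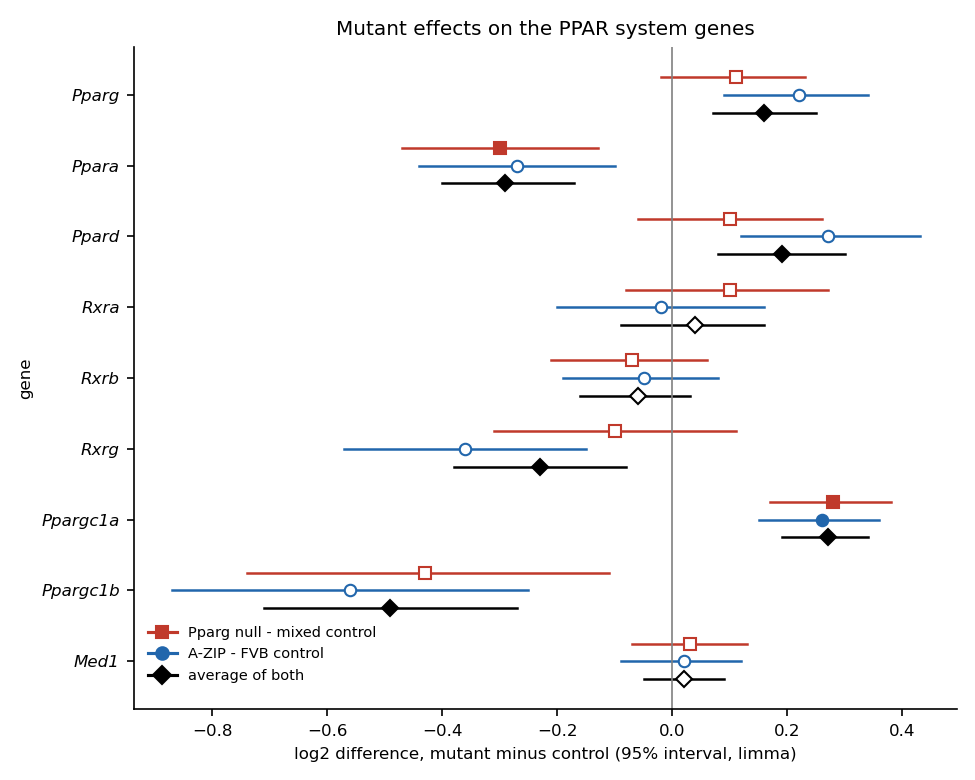
Log2 difference (horizontal axis, mutant minus control) of each gene in the null line (red squares), the A-ZIP line (blue circles) and their average (black diamonds), with 95% intervals from limma; filled symbols passed the threshold. Ppargc1a is filled throughout, and Ppara and Ppargc1b lie below 0 in both lines with the interval clear of 0.

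The lines share no control array, so their effects were also averaged in the same fit, which uses all arrays. In this average 6 of 9 genes passed the threshold, 3 higher and 3 lower, where 12.6% of all genes passed it (6.29% in each direction). The genes that rose were Ppargc1a (0.27 ± 0.03, limma adjusted p = 0.0008), Ppard (0.19 ± 0.05, adjusted p = 0.0339) and Pparg (0.16 ± 0.04, adjusted p = 0.0239). Those that fell were Ppargc1b (-0.49 ± 0.10, adjusted p = 0.00889), Ppara (-0.29 ± 0.05, adjusted p = 0.00647) and Rxrg (-0.23 ± 0.07, adjusted p = 0.0449). Rxra, Rxrb and Med1 did not pass, at 0.04 ± 0.06, -0.06 ± 0.04 and 0.02 ± 0.03. The signs agreed between the lines for 8 of 9 genes and for 65.5% of all genes. For Pparg the average joins 0.11 ± 0.06 in the line in which it was targeted, where arrays overlapped, with 0.22 ± 0.06 in A-ZIP. The null value is the signal of a probe set that does not check the genotype, so the average does not show more intact Pparg transcript there.

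The average calls differed in how far they rested on single arrays. Ppargc1a, Ppara and Ppargc1b kept theirs with each of the 12 arrays left out. Pparg lost it without mixed control 1 (limma adjusted p = 0.0616), FVB control 1 (0.0524) or FVB control 2 (0.0592). Ppard kept its call in 4 of 12 cases (adjusted p up to 0.0838). It lost the call with the replicate number as a block (0.0523) and with all probe sets tested (0.0639). Rxrg kept its call in 2 of 12 cases (up to 0.0946), and lost it with the block (0.0587) and with all probe sets tested (0.0836).

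Whether the lines differed from each other was tested as the null effect minus the A-ZIP effect. This test found 0 of the 9 genes by limma, with 0 of 9 at an unadjusted p under 0.05, and 0.0201% of all genes (0.0100% with the higher effect in each direction). The intervals bound how large a difference could be. For Ppargc1a the difference of effects was 0.02 (95% interval -0.13 to 0.17), for Ppara -0.03 (-0.27 to 0.21), and for Pparg -0.11 (-0.29 to 0.07). Wider intervals were left for Rxrg, at 0.26 (-0.03 to 0.56), and for Ppargc1b, at 0.14 (-0.31 to 0.58).

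The control kidneys of the backgrounds differed as well. FVB controls minus mixed controls gave 2 of 9 genes past the threshold, both higher in FVB, where 7.22% of all genes passed (3.50% higher, 3.72% lower). The arrays did not overlap for 4 of 9 genes and for 28.5% of all genes. Rxrg was higher by 0.41 ± 0.10 (limma adjusted p = 0.0226, on the dim probe set) and Med1 by 0.19 ± 0.05 (13.9%, adjusted p = 0.0297). Both calls were lost when any of the 6 control arrays was left out (adjusted p up to 0.0801 and 0.116). Ppargc1b was higher by 0.48 ± 0.14 and missed the threshold (adjusted p = 0.0711), with no overlap, and passed it without A-ZIP array 1 (0.0494) or A-ZIP array 2 (0.00835). This comparison and the A-ZIP comparison share the FVB control arrays. Rxrg and Ppargc1b read highest in those arrays, and the mean of Rxrg in A-ZIP kidneys was 0.05 above that in mixed controls.

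The order of the 4 groups differed from gene to gene. Ppargc1a ran from the null kidneys through A-ZIP to mixed controls and FVB controls, with a gap of 0.19 and no overlap between A-ZIP and mixed controls. For Ppara the order was FVB control, mixed control, A-ZIP and null. Of pairs next to each other in this order only the highest, 0.11 apart, did not overlap, while each mutant group was clear of its own controls. Ppard and Pparg were highest in A-ZIP, by 0.27 over FVB controls without overlap for Ppard and by 0.12 over null kidneys with overlap for Pparg. The FVB and mixed controls were level for Pparg, with a gap of 0.00. Med1 separated by background, with a gap of 0.16 between FVB controls and null kidneys and overlap within each background.

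Other receptors that use RXR as partner were read from a list of 13, of which 12 were measured. Null kidneys had 1 of 12 higher and 2 lower past the threshold, beside 2.67% and 2.62% of all genes. Without null array 1 or A-ZIP array 3, 4 were lower. The list median was -0.071 against -0.009 for all genes. The rise was in Nr4a1, an immediate early receptor (0.92 ± 0.14, limma adjusted p = 0.00435). The falls were in Nr1i2, the xenobiotic receptor PXR (-0.46 ± 0.07, adjusted p = 0.0054), and Nr1h3, the oxysterol receptor LXRα (-0.56 ± 0.13, adjusted p = 0.027). Nr1h3 lost its call without null array 2 or 3 or mixed control 1 or 2 (adjusted p up to 0.101), and the calls of the other pair held with each array left out. In the A-ZIP line 0 of 12 passed by limma (8 at an unadjusted p under 0.05, which 16.4% of all genes reached), with a median of -0.129 against 0.003 for all genes. In the average 1 rose and 5 fell, beside 6.29% of all genes in each direction. Among the falls, named after their values were seen, were the vitamin D receptor Vdr (-0.33, limma adjusted p = 0.00896), the thyroid hormone receptor Thrb (-0.22, adjusted p = 0.0189) and the bile acid receptor Nr1h4 (-0.25, adjusted p = 0.0269). Vdr kept its call with each array left out, Thrb in 11 of 12 cases and Nr1h4 in 5 of 12 (adjusted p up to 0.0682).

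Of other coactivators and Mediator subunits 23 of 24 were measured. Beside 5.29% of all genes past the threshold in the null line and 2.43% in the A-ZIP line, 1 of the 23 rose and 0 fell in each. This was Lpin1, the phosphatidate phosphatase that also acts as a coactivator of PPARα with PGC-1α, at 0.62 ± 0.15 in the null line (limma adjusted p = 0.0351) and 0.86 ± 0.15 in the A-ZIP line (adjusted p = 0.0154). Its A-ZIP call was lost without A-ZIP array 2 or any of the FVB controls (adjusted p up to 0.0609), and its null call without null array 1 or 2, any mixed control or FVB control 2 (adjusted p up to 0.118). In the average, Lpin1 at 0.74 kept its call with each array left out (adjusted p up to 0.00494). Of other corepressors 10 of 11 were measured. Tbl1x, a subunit of the NCoR complex, rose in the null line (0.21 ± 0.04, limma adjusted p = 0.0188) as 1 of 10, beside 2.67% of all genes. It lost its call without null array 2 or 3 or any mixed control (adjusted p up to 0.0684). Of the 10 corepressors 0 passed by limma in the A-ZIP line (1 at an unadjusted p under 0.05, which 16.4% of all genes reached). The list medians in the null and A-ZIP lines were 0.057 and 0.026 for coactivators and 0.033 and -0.011 for corepressors.

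The factors that PGC-1 proteins act on, and those that make the mitochondrial transcription machinery, formed a list of 16, all measured. In each line 2 rose and 0 fell, where 2.67% (null) and 1.30% (A-ZIP) of all genes rose. They were the same genes, the estrogen-related receptor Esrrb (0.34 ± 0.06 in null, limma adjusted p = 0.0113, and 0.33 ± 0.06 in A-ZIP, adjusted p = 0.0202) and the forkhead factor Foxo3 (0.26 ± 0.06, adjusted p = 0.0352, and 0.27 ± 0.06, adjusted p = 0.042). With each array left out in turn, Esrrb kept its null call except without mixed control 1 (adjusted p = 0.0524) and lost its A-ZIP call without A-ZIP array 3 or any FVB control (up to 0.093). Foxo3 kept its null call in 5 of 12 cases and its A-ZIP call in 4 of 12 (adjusted p up to 0.128 and 0.16). In the average 2 rose and 4 fell, beside 6.29% of all genes in each direction. The falls, named after their values were seen, were in Esrra (-0.17, adjusted p = 0.0186), the estrogen-related receptor through which PGC-1α acts on mitochondrial genes, in Hnf4a (-0.15), a nuclear receptor of the proximal tubule, and in Tfb1m and Tfb2m (both -0.14), factors of the mitochondrial ribosome and of mitochondrial transcription. With an array left out, Esrra kept its call in 11 of 12 cases, Tfb2m in 4, Hnf4a in 3 and Tfb1m in 1 (adjusted p up to 0.116), and the calls of Hnf4a, Tfb1m and Tfb2m were lost with all probe sets tested. The list median was -0.026 in the null line and -0.028 in the A-ZIP line.

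Among 19 of 20 measured regulators of PGC-1α, 1 rose and 1 fell in each line. Of all genes 2.67% rose and 2.62% fell in the null line, and 1.30% and 1.13% in the A-ZIP line. Arntl, the clock factor BMAL1, rose by 1.62 ± 0.11 in the null line (limma adjusted p = 8.33e-05) and by 0.77 ± 0.11 in the A-ZIP line (adjusted p = 0.00923). Nr3c1, the glucocorticoid receptor, fell by 0.19 ± 0.04 and by 0.21 ± 0.04 (adjusted p = 0.0214 and 0.0243). Arntl kept both calls with each array left out, and Nr3c1 kept each of its calls in 7 of 12 cases (adjusted p up to 0.0805 and 0.0931). Between the control groups Arntl also differed, by 0.74 ± 0.11 (FVB minus mixed, adjusted p = 0.00202). The sources used here do not give the hour at which kidneys were taken.

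Genes that bind fatty acids or supply ligands were measured for 16 of 17. Past the threshold in null kidneys were 1 rise and 1 fall of the 16, beside 2.67% and 2.62% of all genes. The rise was in the fatty acid binding protein Fabp7 (0.90 ± 0.20, limma adjusted p = 0.0276). The fall was in Ptgds (-0.74 ± 0.09, adjusted p = 0.00185), which makes the precursor of a prostaglandin ligand of PPARγ. Fabp7 lost its call without null array 1 or 3 or mixed control 1 or 2 (adjusted p up to 0.0991). Between the control groups Ptgds also differed, by -1.20 ± 0.09 (FVB minus mixed, adjusted p = 1.35e-05). A-ZIP kidneys had 0 of 16 past the threshold by limma (8 at an unadjusted p under 0.05, beside 16.4% of all genes). The list median was -0.066 in the null line and 0.136 in the A-ZIP line.

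**Figure D3:**
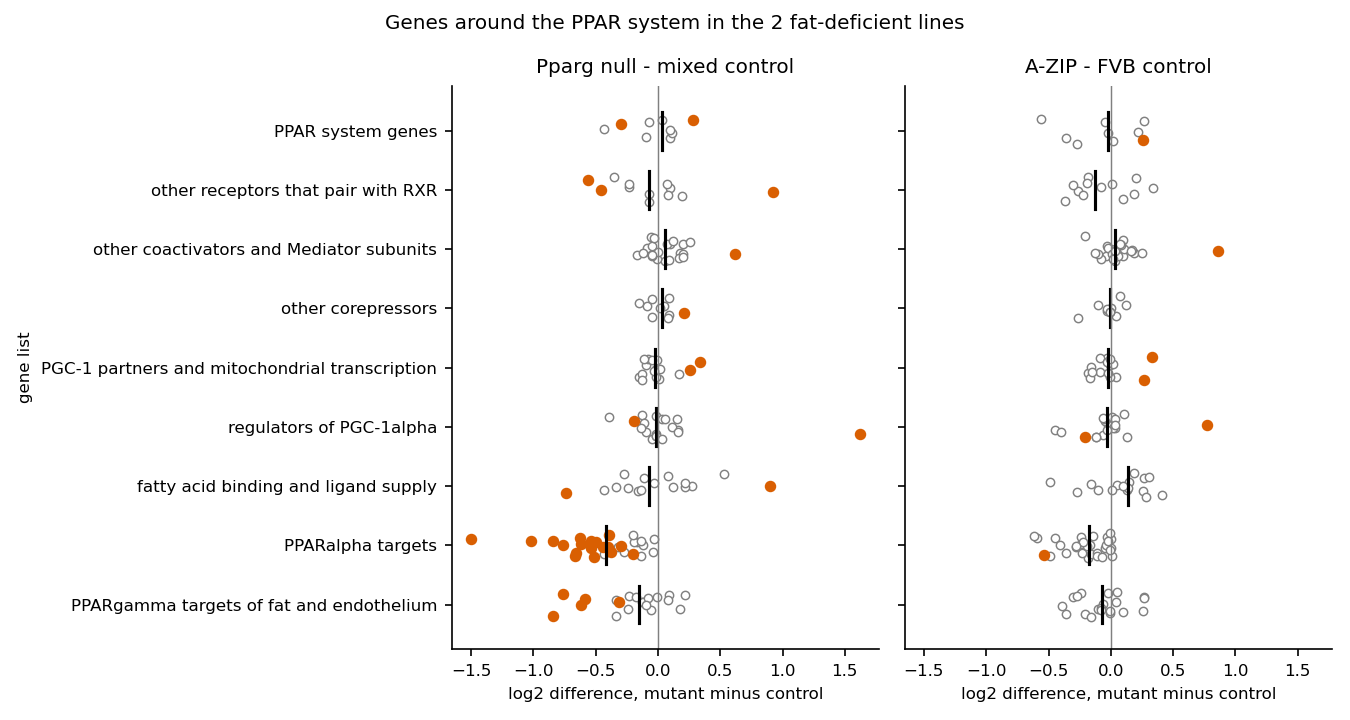
Log2 difference (horizontal axis, mutant minus control) of each gene in 9 lists, for the null line (left) and the A-ZIP line (right); orange points passed the threshold, open points did not, and black bars are list medians. PPARα targets lie mostly left of 0, with 19 of 30 past the threshold in the null line (8 without mixed control 1 or null array 3) and 1 of 30 in the A-ZIP line. Of all genes 5.29% and 2.43% passed.

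Below the receptors, 30 of 33 listed PPARα targets were measured. Null kidneys had 0 of them higher and 19 lower past the threshold, beside 2.67% and 2.62% of all genes. The list median was -0.416 against -0.009 for all genes. The 19 falls were 8 without mixed control 1, 8 without null array 3 and 11 without null array 2. In the A-ZIP line 0 rose and 1 fell, where 1.13% of all genes fell, with a median of -0.173 against 0.003. The falls were 3 without A-ZIP array 1, 2 without A-ZIP array 3, mixed control 1 or FVB control 3, and 4 with a variance trend. At an unadjusted p under 0.05 by limma stood 13 of the 30 in that line, which 16.4% of all genes reached. The falls in the null line included the droplet coat genes Plin2 (-0.84 ± 0.11, limma adjusted p = 0.00288) and Plin5 (-0.54 ± 0.07, adjusted p = 0.00171), and the peroxisomal thioesterase Acot4 (-0.54 ± 0.06, adjusted p = 0.00164). Acot4 was the target past the threshold in A-ZIP kidneys, at -0.54 ± 0.06 (adjusted p = 0.00429). In the average over both lines 0 of 30 targets rose and 21 fell, with a median of -0.293 against -0.003. Of all genes 6.29% fell past the threshold in the average. The average calls of Plin2, Plin5 and Acot4 held with each of the 12 arrays left out, and some other targets lost theirs in some of these fits. The difference between the lines passed by limma for 0 of 30 targets (8 at an unadjusted p under 0.05, which 5.82% of all genes reached).

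Listed PPARγ targets of fat and endothelium were measured for 20 of 22. Of these 0 rose and 5 fell in the null line, where 2.62% of all genes fell, with a median of -0.158. Among the falls were Btnl9 (-0.62 ± 0.09, limma adjusted p = 0.00335) and the lipase Lipe (-0.59 ± 0.09, adjusted p = 0.00368). In the A-ZIP line 0 of 20 passed by limma (9 at an unadjusted p under 0.05, beside 16.4% of all genes), with a median of -0.068. Plin2 and Angptl4, the latter named after its values were seen, stand on both target lists and count among the null falls of each. Angptl4 lost its null call without mixed control 1 (limma adjusted p = 0.0672). The collecting duct markers, in whose cells PPARγ is expressed, had a mean of 10.16 to 10.27 on the null arrays, 9.81 to 10.01 on mixed controls, 9.75 to 9.79 on FVB controls and 9.75 to 10.06 on A-ZIP arrays. In the null line 3 of 4 rose, beside 2.67% of all genes. Among them Aqp2 (0.48 ± 0.10, limma adjusted p = 0.022) lost its call without null array 2 or 3 or mixed control 1 or 3 (up to 0.0819). Without any one of these arrays 0 of the 4 duct markers passed by limma, and without mixed control 2 it was 1 of 4. The part of duct content in the values of Pparg and its targets was not tested.

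For each gene the others most like it over the 12 arrays were found by Pearson's r after the mean of each background was taken out, among genes of at least median expression. These arrays share the mutant and control groups, so the values are a description. The mutant shift enters r, so the differences of genes picked this way are no separate test. Ppargc1a was most like Usp54 (0.977), Zdhhc15 (0.971) and Mta3 (0.969), of which Usp54 rose in both lines, by 0.30 and 0.22 (limma adjusted p = 0.00376 and 0.0288), as did Zdhhc15, by 0.37 and 0.34 (adjusted p = 0.0053 and 0.0152). Mta3, at 0.17 and 0.16, passed in neither line (adjusted p = 0.0503 and 0.0866). Ppara was most like Slc10a5 (0.967), Smarca2 (0.961) and Nudt12 (0.957), and Nudt12 fell in both lines, by 0.47 and 0.39 (limma adjusted p = 0.00284 and 0.0139). Slc10a5 passed in the null line only (adjusted p = 0.0198, and 0.0616 in A-ZIP), and Smarca2 in neither (0.221 and 0.166). Ppargc1b was most like Rreb1 (0.965), Mttp (0.954) and Rap1gap (0.934), and Mttp, the triglyceride transfer protein of lipoprotein assembly, fell by 0.63 in the A-ZIP line (adjusted p = 0.0115) and stood at -0.38 in the null line (adjusted p = 0.0508).

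The remaining genes had these neighbours. Pparg was most like Mmp2 (0.931), Prdm2 (0.928) and Klf9 (0.926), and Ppard was most like Plvap (0.940), Maml2 (0.922) and Ptprb (0.922). Rxra was most like Sqstm1 (0.938), Wdr20 (0.932) and Rtf1 (0.927), Rxrb like Pkp4 (0.962), Ccdc28a (0.905) and Ap1g2 (0.897), and Rxrg like Mlec (0.936), Tmem106a (0.935) and Reps2 (0.932). Med1 was most like Tmf1 (0.892), Phf21a (0.868) and Phxr4 (0.866), the lowest values of the 9 genes.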

How the data were processed

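Kidney RNA was measured on 12 arrays, 3 per group. The authors deposited log2 values per probe set. RMA, which corrects for background and scales arrays to each other, and Affymetrix Expression Console are the tools that the submitters' processing notes name, with versions and annotation build not given in the sources used here. Array medians were 7.17 to 7.21. Of 35556 probe sets 21789 had a single symbol, 1621 several and 12146 none, and 21698 symbols were updated by Entrez number from a RefSeq table of GRCm38.p6. The probe set with the highest mean stood for a gene, which left 19938 genes. A model of 1 mean per group was fitted over the 12 arrays in limma 3.58.1 (R 4.3.3), giving 8 residual and 3.71 prior degrees of freedom, with p-values adjusted by Benjamini and Hochberg over all genes. The median SE of a difference was 0.0698, and 3 arrays per group limit the precision. The fit was tested on simulated data.

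Genes and lists were chosen with earlier results of these data known. The text names each of the 10 listed genes, up to 3 genes of each list with the smallest p past the threshold in each line, and the 3 genes most like each listed gene. Others are marked as named after their values were seen, or stand as list markers. Promoters are RefSeq windows, searched for 8 motifs.

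Deviations of arrays with the same replicate number correlated at 0.247, 0.181 and 0.135 between the control groups, over 0.1 in every pair, which treats the numbers as pairing those groups. Between null and mixed control arrays they were 0.184, 0.179 and 0.009, and between A-ZIP and FVB control arrays -0.036, -0.103 and -0.01, which did not. Arrays with different numbers reached 0.147 (null 3 with mixed control 2) and 0.154 (A-ZIP 2 with FVB control 1), and at most 0.005 between the control groups. Deviations from a mean of 3 arrays constrain each other, so these values do not establish a pairing. Alternatives were another quantile normalization, equal medians, a filter at percentile 25 of mean expression, probe sets of a gene averaged, every probe set tested, a variance trend, the replicate block, only the groups compared, and each array left out.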

Additional observations from a re-analysis of the deposited data

Results flagged for a closer look

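Ptgds and Krt5, of the lists read beside the PPAR genes, had effects that differed between the lines. Ptgds, which makes prostaglandin D, read 9.33, 9.51 and 9.64 on null arrays and 10.20, 10.20 and 10.30 on their controls, against 9.32, 9.28 and 9.42 on A-ZIP arrays and 8.83, 9.14 and 9.12 on FVB controls. Its null effect minus its A-ZIP effect was -1.05 (limma adjusted p = 0.0215), and the call was lost in 7 of 12 cases with an array left out (adjusted p up to 0.0915) and with all probe sets tested (0.114). The control groups themselves differed in Ptgds by -1.20 ± 0.09 (FVB minus mixed, adjusted p = 1.35e-05). Krt5, a keratin of basal epithelium on the list of urothelial markers, read 8.55, 8.32 and 8.95 on null arrays and 6.86, 6.67 and 6.91 on their controls, against 6.80, 7.05 and 6.88 on A-ZIP arrays and 6.70, 6.91 and 6.61 on FVB controls. Its difference of effects was 1.63 (adjusted p = 0.0215), and it kept the call in 6 of 12 cases with an array left out and lost it with the replicate number as a block and with all probe sets tested (adjusted p up to 0.114). The other 3 urothelial markers read lower in null kidneys than in controls, with Upk1b past the threshold (-0.91 ± 0.15, adjusted p = 0.0083), and the median of the 4 was -0.196.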

How the results depend on the processing

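No result changed direction past the threshold under any alternative run. Of 877 repeats of the differences of the 9 genes, 810 kept their side of the threshold, 51 lost a call and 16 gained one. Most of the 810 are repeats of differences that had not passed, so they do not measure how stable the calls were. The 51 losses fell on the calls alone. With an array left out, Ppara kept its null call in 4 of 12 cases and Rxrg its average call in 2 of 12. In the null line 1 of the 9 genes passed with all probe sets tested. In the A-ZIP line 4 passed (Pparg, Ppard, Ppargc1a and Ppargc1b) with genes under percentile 25 left out, 3 with a variance trend and 0 with all probe sets tested. Between the controls 1 passed with the percentile 25 filter, which drops Rxrg. Over all genes the A-ZIP count moved from 485 to 176 with all probe sets, 785 with a variance trend and 162 with only its groups fitted, the null count from 1055 to 607 with only its groups fitted, and the count that differed between the lines from 4 to 0 with all probe sets. With the replicate number as a block the counts were 1102 for the null line, 694 for A-ZIP, 1489 between controls, 2645 for the average and 1 for the difference between the lines. The block lost the average calls of Ppard and Rxrg, leaving 4 of 9, and changed no other call of the 9 genes. Testing all probe sets lost the same average calls. With each array left out in turn, genes past the threshold ranged from 330 to 1220 (null), 62 to 606 (A-ZIP), 0 to 9 (difference), 1676 to 2575 (average) and 852 to 1596 (controls). Of the 9 genes, 1 to 3, 0 to 3, 0 to 0, 3 to 6 and 0 to 3 passed in the same order. Shifting the arrays to equal medians split the calls as 436 higher and 694 lower in the null line (532 and 523 as deposited), 203 and 326 for A-ZIP (260 and 225) and 960 and 1743 for the average (1255 and 1254). With 3 arrays per group, the median SE of 0.0698 limits what small changes can be told from 0.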
